A study of Mus musculus with 9 samples.

Results

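Transient receptor potential (TRP) channels are cation channels of the plasma membrane and of endolysosomal membranes, and 10 genes of this family were followed in mouse peritoneal macrophages given lipopolysaccharide (LPS) with or without ethanol or CPZ. The genes were taken by symbol from the 55335 genes of the expression table, and each symbol had a single entry. They are Trpv1, Trpv2 and Trpv4 of the vanilloid subfamily, Trpm2, Trpm4 and Trpm7 of the melastatin subfamily, Trpc1 of the canonical subfamily, Mcoln1 and Mcoln2 of the mucolipin subfamily (TRPML1 and TRPML2), and Pkd2, the polycystin-2 gene. The question behind them comes from the title of the series, which links alcohol, M2b polarization of macrophages in colitis and TRPV1 signalling to MAPK and NF-kB.

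Expression was measured by strand-specific RNA-seq in 9 libraries, 3 per group. After 1 h of preculture in RPMI medium, every culture was stimulated for 4 h with 1 µg/mL of LPS, the outer membrane glycolipid of Gram-negative bacteria that TLR4 recognizes. The group LPS received nothing else, LPS+EtOH received 5% ethanol as well, and LPS+CPZ received 100 µM of an agent given in the labels only as CPZ. RNA from 3 samples was pooled for each library. Cells without LPS, with or without ethanol or CPZ, were not analysed here, and nor was a vehicle group for CPZ. Whether pools of a group drew on separate animals or cultures is not given, so p-values measure only the spread between pools. Strain, sex and age of the mice are not given in the sources used here.

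TRP channels conduct calcium, sodium or magnesium when opened by lipids, nucleotides, heat, stretch or depletion of calcium stores. In macrophages, TRPV2 is known for a part in the early binding of particles, TRPM2 opens on ADP-ribose made during oxidative stress, TRPM7 joins a magnesium- and calcium-permeable pore to a kinase domain, and TRPM4 carries sodium in response to calcium. TRPML1 releases calcium from lysosomes and acts on their fusion and exocytosis, and TRPML2 sits on recycling endosomes and is known as an LPS-induced gene that promotes chemokine secretion. TRPV1, the capsaicin and heat receptor, is best known from sensory neurons.

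The transcription factors TFEB and TFE3, which raise lysosomal genes, bind the E-box CACGTG, best as the longer element TCACGTGA. RefSeq promoter windows (GRCm38.p6, 250 bases before to 50 after the gene start) were found for 9 of the 10 genes, in 11 entries, and none for Trpm4. The E-box was in the windows of Mcoln1, Mcoln2 and Trpm7, and in 7.15% of all 32851 windows. These windows are printed because the Tfeb, Tfe3 and mucolipin transcripts differed between the groups. With ethanol, where Tfeb and Tfe3 were higher than in LPS, Mcoln1 was higher, Mcoln2 was lower and Trpm7 was not called. A link between these factors and the genes was not tested. Capitals mark the E-box, which reads the same on both strands. The Mcoln1 window is chr8:3500269-3500568 on the plus strand, the Mcoln2 window is chr3:146149924-146150223 on the plus strand, and the Trpm7 window is chr2:126876212-126876511 on the minus strand.
Mcoln1: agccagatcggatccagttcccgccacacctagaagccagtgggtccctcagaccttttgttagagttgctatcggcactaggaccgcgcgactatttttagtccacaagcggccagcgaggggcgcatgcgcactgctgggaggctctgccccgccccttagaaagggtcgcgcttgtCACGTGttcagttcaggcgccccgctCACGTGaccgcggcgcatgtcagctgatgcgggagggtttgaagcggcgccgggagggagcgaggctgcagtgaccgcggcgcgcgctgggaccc
Mcoln2: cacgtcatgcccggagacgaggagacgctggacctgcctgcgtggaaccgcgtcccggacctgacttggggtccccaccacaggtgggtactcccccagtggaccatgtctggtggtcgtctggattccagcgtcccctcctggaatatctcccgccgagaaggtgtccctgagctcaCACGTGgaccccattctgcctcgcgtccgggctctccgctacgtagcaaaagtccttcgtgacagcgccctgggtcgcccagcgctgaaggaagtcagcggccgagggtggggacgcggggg
Trpm7: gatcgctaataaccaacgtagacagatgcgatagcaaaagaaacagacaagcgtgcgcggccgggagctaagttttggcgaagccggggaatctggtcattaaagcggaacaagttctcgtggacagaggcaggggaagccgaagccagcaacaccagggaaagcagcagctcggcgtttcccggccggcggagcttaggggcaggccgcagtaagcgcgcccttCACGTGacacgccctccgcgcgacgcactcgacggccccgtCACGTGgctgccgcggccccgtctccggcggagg

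In Mcoln1 the E-boxes began 71 and 45 bases before the gene start, in Mcoln2 72 bases before it, and in Trpm7 25 bases before it and at base 17 of the gene. The longer element TCACGTGA, which contains the E-box, was in 0.974% of all windows, and among the members in those of Mcoln1 and Trpm7. On both strands, GAGGAAG (PU.1-like, 13.6% of all windows) was in 2 overlapping Trpv2 windows, at the same genomic site in both. GAANNTTC (heat shock-like, 7.86%) was in another Trpv2 window. TATAAA (13.6%) was in windows of Trpm2 and Trpv2. TGACNNNGC (antioxidant response-like, 12.4%) was in windows of Mcoln2, Pkd2 and Trpm7. GGGCGG (35.7%) was in windows of Mcoln1, Trpc1, Trpm2 and Trpv4, and CCAAT (37.4%) in that of Trpv1. The letters GGGANTTCC (NF-kB-like, 1.68%), TGANTCA (AP-1-like, 7.81%) and TGACGTCA (CREB-like, 1.79%) were in no member's window. A match is a description of the letters and not a measured binding site.

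Values are in FPKM, which counts fragments per length of transcript and per mapped fragments of the library, so levels can be set beside each other between genes. The libraries summed to 302126 to 363356 FPKM. Genes at or above 1 FPKM numbered 11096 to 11266 with LPS alone, 8024 to 8366 with ethanol, and 10135 to 10625 with CPZ, and globin transcripts took 11.5 to 29.4, 0.172 to 0.221 and 0.0452 to 0.0972% of all FPKM. The macrophage markers Adgre1, Csf1r, Lyz2, Cd68 and Cd14 had group means of 1 FPKM or more in all 3 groups, whereas Mertk was below 1 FPKM in every library. Transcripts of other cells were present: the 10 neutrophil markers summed to 3857 to 5428 FPKM with LPS alone, 43752 to 48329 with ethanol, and 6384 to 6890 with CPZ, and the 10 B cell markers to 1525 to 2177, 147 to 201 and 1218 to 1435. The 8 macrophage markers summed to 1591 to 2046, 2662 to 2989 and 1056 to 1233 FPKM, the 8 markers of large peritoneal macrophages to 104 to 135, 10.1 to 11.5 and 28.1 to 41.4, and the 10 T and NK cell markers to 54.6 to 72.1, 1.07 to 2.37 and 12.5 to 22.8. Single genes weigh heavily in some of these sums. In LPS, LPS+EtOH and LPS+CPZ, Cd14 averaged 907, 2177 and 406 FPKM, Ighm 1249, 120 and 1160, and S100a9 3369, 33420 and 3208. Of 7 macrophage markers in the test below, 4 were lower and 2 higher in LPS+EtOH than in LPS. Of 10 B cell markers, 9 were lower in LPS+CPZ than in LPS. Of all genes tested, 64.6 and 48.4% were lower in these comparisons. In bulk RNA, fewer cells of a type and less RNA per cell cannot be told apart.

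Of the 10 genes, 6 reached 1 FPKM in at least 3 libraries and were tested, together with 11721 genes in all, by limma on log2(FPKM + 1). Log2 changes are given with their standard error and the Benjamini-Hochberg adjusted p. The scale understates the change of genes near or below 1 FPKM, so ratios of mean FPKM are given too. In LPS+EtOH against LPS, 3 members were higher (Trpv2, Trpm2, Mcoln1) and 2 lower (Trpm4, Mcoln2), where 19.0% of all genes tested were higher and 64.6% lower. In LPS+CPZ against LPS, 3 were higher (Trpv2, Trpm2, Mcoln1) and 1 lower (Mcoln2), where 20.7% of all genes were higher and 48.4% lower. In LPS+CPZ against LPS+EtOH, 3 were higher (Trpm4, Mcoln1, Mcoln2) and 1 lower (Trpv2), where 61.4% of all genes were higher and 15.2% lower. The first 2 comparisons share the LPS libraries, so they are not independent of each other.

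Most genes moved one way, so the size of a change also depends on the scaling. The median log2 change of all genes tested was -0.82 in LPS+EtOH against LPS, -0.33 in LPS+CPZ against LPS and 0.55 in LPS+CPZ against LPS+EtOH. Median-ratio scaling, which centres most genes, brought these medians to -0.08, -0.08 and 0.08. As deposited, 2230 genes were higher and 7566 lower in LPS+EtOH against LPS, and after that scaling 4435 and 4936. The same counts went from 2432 and 5674 to 3228 and 3997 in LPS+CPZ against LPS, and from 7195 and 1785 to 4169 and 3686 in LPS+CPZ against LPS+EtOH. Changes of single members are therefore set beside their values after median-ratio scaling where the sign or the call differed or the value moved by over 1.5 times.

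**Figure D1:**
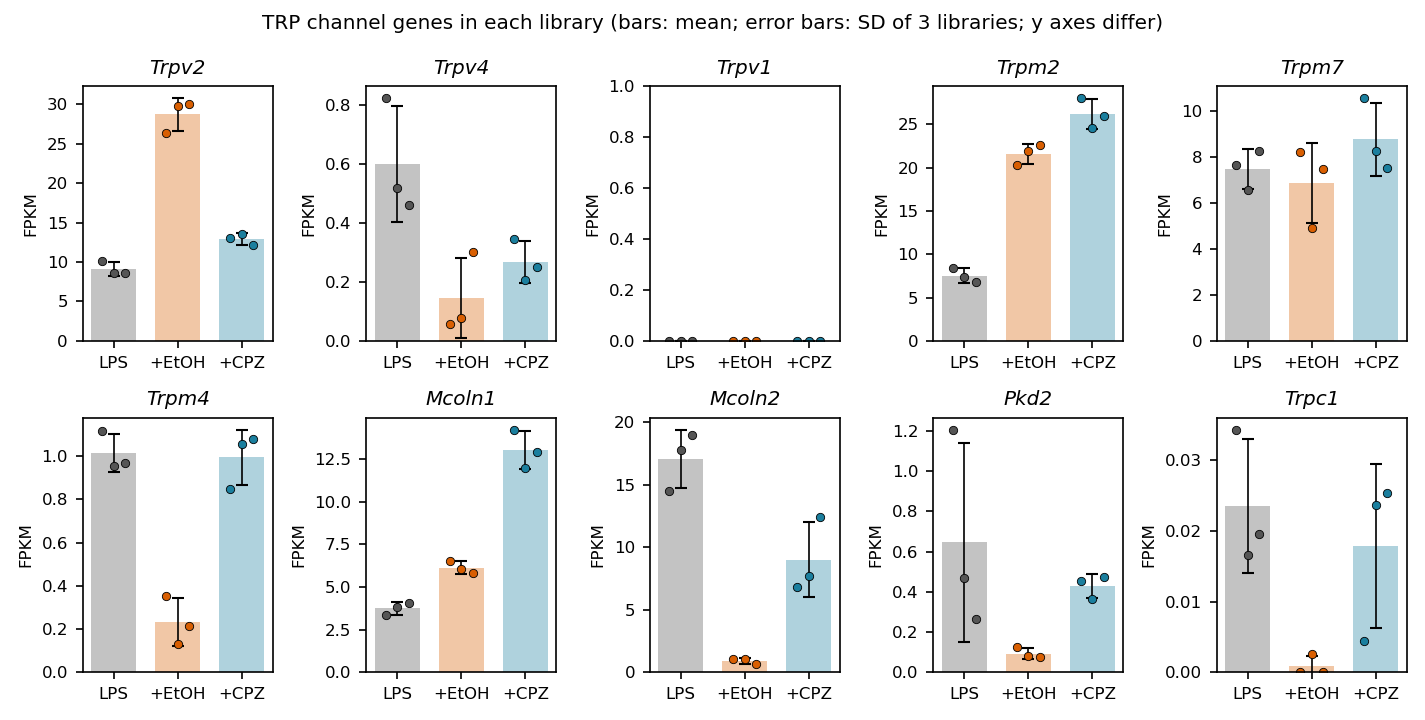
FPKM (y axis, a separate linear scale in each panel) of the 10 TRP channel genes in the 3 groups (x axis). Points are libraries, bars are group means and error bars are SD of 3 libraries. Trpv2 is highest in LPS+EtOH, Trpm2 and Mcoln1 are lowest in LPS, Mcoln2 is highest in LPS, and Trpv1 is listed at 0 throughout.

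Among the vanilloid channels, Trpv2 (ENSMUSG00000018507) was the abundant one and was highest with ethanol. The LPS libraries held it at 10.1, 8.59 and 8.58 FPKM, the LPS+EtOH libraries at 26.4, 29.8 and 30.0, and the LPS+CPZ libraries at 13.0, 13.6 and 12.1. No 2 groups overlapped, and the order was LPS+EtOH, LPS+CPZ, LPS. The mean of 28.7 ± 2.06 FPKM in LPS+EtOH (SD, n = 3) was 3.16 times that of LPS, 9.08 ± 0.864, and 2.22 times that of LPS+CPZ, 12.9 ± 0.734. The log2 change against LPS was 1.56 ± 0.11 with ethanol (limma adjusted p = 3.74e-07) and 0.47 ± 0.11 with CPZ (limma adjusted p = 0.00345). LPS+CPZ was lower than LPS+EtOH by a log2 difference of -1.09 ± 0.11 (limma adjusted p = 1.16e-05). After median-ratio scaling these values were 2.58, 0.74 and -1.84. The rise with CPZ depended on the globins: when the 4 globin genes were left out and the rest rescaled, it was 0.18 (limma adjusted p = 0.238). All 10 neutrophil markers, whose summed level was also highest in LPS+EtOH, were higher in LPS+EtOH than in LPS, and none was at 0 in any group. Of all genes tested, 19.0% were higher there. In LPS+CPZ against LPS, where Trpv2 was higher, 3 of the 10 markers were higher, 3 lower and 4 not called. In LPS+CPZ against LPS+EtOH 9 were lower and 1 higher. Of 7 tested macrophage markers 2 were higher and 4 lower in LPS+EtOH than in LPS. The part of either cell type in the result was not tested.

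Trpv4 (ENSMUSG00000014158), a channel opened by osmotic swelling and warmth, was below 1 FPKM in every library and was not tested. Its values were 0.823, 0.517 and 0.459 FPKM with LPS alone, 0.0558, 0.0779 and 0.302 with ethanol, and 0.345, 0.206 and 0.252 with CPZ. All LPS libraries lay above all others, and the other 2 groups overlapped. Trpv1 (ENSMUSG00000005952), the channel in the series title, was listed at 0 in each of the 9 libraries, so these values give no difference between groups. A listing of 0 can also be a failed estimate.

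Trpm2 (ENSMUSG00000009292), the ADP-ribose-gated channel, was high in both groups that received a further agent. It stood at 8.45, 7.34 and 6.86 FPKM with LPS alone, at 20.3, 22.0 and 22.6 with ethanol, and at 28.0, 24.5 and 26.0 with CPZ. The LPS libraries were all far below the other 6, and LPS+CPZ lay above LPS+EtOH without overlap. Mean levels were 7.55 ± 0.817, 21.6 ± 1.16 and 26.2 ± 1.76 FPKM (SD, n = 3), which are 2.86 and 3.47 times the LPS level with ethanol and with CPZ. The log2 changes against LPS were 1.41 ± 0.11 with ethanol (limma adjusted p = 7.77e-07) and 1.67 ± 0.11 with CPZ (limma adjusted p = 8.86e-07), and 2.41 and 1.93 after median-ratio scaling. The difference of LPS+CPZ from LPS+EtOH, 0.26 with a 95% interval of 0.01 to 0.51, did not pass the threshold (limma adjusted p = 0.052), and after median-ratio scaling it passed in the opposite direction, at -0.48 (limma adjusted p = 0.00934). All 10 neutrophil markers were higher in LPS+EtOH than in LPS, and in LPS+CPZ against LPS 3 were higher and 3 lower. Of all genes tested, 19.0% were higher in the first comparison, and 20.7% were higher and 48.4% lower in the second. In LPS+CPZ against LPS+EtOH 9 of the 10 markers were lower as deposited, and only Ly6g was higher, where 15.2% of all genes were lower. Ly6g thus had the same order of group means as Trpm2, unlike the other neutrophil markers. It stood at 16.9 ± 4.79 FPKM with LPS alone, 156 ± 12.3 with ethanol, and 274 ± 31.1 with CPZ (SD, n = 3). Cd68 of the macrophage markers had this order too, at 55.5, 363 and 405 FPKM in LPS, LPS+EtOH and LPS+CPZ. So did Cd93 of the large peritoneal macrophage markers, at 3.18, 5.62 and 7.31 FPKM. The other genes of these macrophage lists did not. The part of neutrophil or macrophage transcripts in the result was not tested. In GENCODE M21 exons of Trpm2 overlap those of 2 snoRNA genes on its strand, which had means of 0.448 and 0.142 FPKM over the 9 libraries.

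Trpm7 (ENSMUSG00000027365), the channel-kinase that takes up magnesium, passed no comparison. Its values were 7.65, 6.55 and 8.25 FPKM with LPS alone, 8.23, 4.90 and 7.48 with ethanol, and 10.6, 8.24 and 7.52 with CPZ. The 3 groups overlapped, with means of 7.48 ± 0.865, 6.87 ± 1.75 and 8.77 ± 1.58 FPKM (SD, n = 3). The 95% intervals of the log2 differences were -0.53 to 0.28 for LPS+EtOH against LPS (limma adjusted p = 0.519), -0.21 to 0.60 for LPS+CPZ against LPS (limma adjusted p = 0.356) and -0.08 to 0.73 for LPS+CPZ against LPS+EtOH (limma adjusted p = 0.125). Median-ratio scaling turned the first to 0.83 (limma adjusted p = 0.00153), took the second to 0.47 (limma adjusted p = 0.0424) and turned the third to -0.36.

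Trpm4 (ENSMUSG00000038260), the calcium-activated sodium channel, was lower with ethanol than in both other groups. It stood at 1.12, 0.956 and 0.969 FPKM with LPS alone, at 0.353, 0.133 and 0.213 with ethanol, and at 0.849, 1.06 and 1.08 with CPZ. LPS and LPS+CPZ overlapped and LPS+EtOH lay below both. The LPS mean of 1.01 ± 0.0899 FPKM was 4.35 times the LPS+EtOH mean of 0.233 ± 0.111, and the LPS+CPZ mean of 0.995 ± 0.127 was 4.27 times it (SD, n = 3). On the log2(FPKM + 1) scale the change was -0.71 ± 0.10 for LPS+EtOH against LPS (limma adjusted p = 5.89e-05), which is 0.11 above the median of all genes, and 0.70 ± 0.10 for LPS+CPZ against LPS+EtOH (limma adjusted p = 0.000116). With a pseudocount of 0.1 these were -1.79 and 1.76, where the medians of all genes were -1.16 and 0.84. After median-ratio scaling they were -0.36 and 0.48, with medians of -0.08 and 0.08. In both of these settings the fall with ethanol was thus larger than the median. LPS+CPZ did not differ from LPS past the threshold, at -0.01 with a 95% interval of -0.24 to 0.21 (limma adjusted p = 0.903), and at 0.13 after median-ratio scaling (limma adjusted p = 0.294).

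Against LPS alone, the mucolipin genes went in opposite directions with ethanol and with CPZ, and both were higher in LPS+CPZ than in LPS+EtOH. Mcoln1 (ENSMUSG00000004567), which encodes the lysosomal channel TRPML1, was lowest in LPS and highest with CPZ. Its values were 3.35, 3.83 and 4.06 FPKM with LPS alone, 6.53, 6.05 and 5.84 with ethanol, and 14.2, 12.0 and 12.9 with CPZ, with no overlap between groups. Mean levels were 3.75 ± 0.364, 6.14 ± 0.355 and 13.0 ± 1.12 FPKM (SD, n = 3), so ethanol went with 1.64 times and CPZ with 3.48 times the LPS level. The log2 change was 0.59 ± 0.11 for LPS+EtOH against LPS (limma adjusted p = 0.000515) and 1.56 ± 0.11 for LPS+CPZ against LPS (limma adjusted p = 1.28e-06). LPS+CPZ exceeded LPS+EtOH by 0.97 ± 0.11 (limma adjusted p = 2.51e-05). After median-ratio scaling the first change was 1.50 and the last 0.28 (limma adjusted p = 0.0499). Without the globin genes the first change was smaller, at 0.34, and close to the threshold (limma adjusted p = 0.0495).

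Mcoln2 (ENSMUSG00000011008), which encodes TRPML2, was the most abundant of the 10 transcripts in LPS and ranked 5 of 10 in every LPS+EtOH library. It stood at 14.5, 17.8 and 19.0 FPKM with LPS alone, at 1.04, 1.11 and 0.670 with ethanol, and at 6.85, 7.74 and 12.5 with CPZ. The groups did not overlap, and LPS+CPZ lay between the others. The LPS mean of 17.1 ± 2.32 FPKM was 18.2 times the LPS+EtOH mean of 0.940 ± 0.236 and 1.90 times the LPS+CPZ mean of 9.02 ± 3.02 (SD, n = 3). LPS+EtOH was lower than LPS by a log2 change of -3.22 ± 0.20 (limma adjusted p = 1.68e-07) and LPS+CPZ by -0.89 ± 0.20 (limma adjusted p = 0.00245). LPS+CPZ was above LPS+EtOH by 2.34 ± 0.20 (limma adjusted p = 3.99e-06), and all 3 calls and directions were the same after median-ratio scaling, at -2.43, -0.58 and 1.86. B cell markers moved with Mcoln2, and none was at 0. All 10 were lower in LPS+EtOH than in LPS, and 9 of 10 in LPS+CPZ than in LPS. Of all genes tested, 64.6 and 48.4% were lower in these comparisons. All 8 tested T and NK cell markers and all 6 tested red blood cell markers were lower in both. Of 6 tested large peritoneal macrophage markers 5 were lower and 1 higher in both. Of 7 tested macrophage markers 4 were lower and 2 higher in both. All 10 neutrophil markers were higher in LPS+EtOH than in LPS. The part of any of these cells in the result was not tested.

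Ratios within a library do not depend on how the library was scaled. Mcoln2 was 4.34 to 4.68 times Mcoln1 in the LPS libraries, 0.115 to 0.183 times in LPS+EtOH and 0.482 to 0.967 times in LPS+CPZ. Trpv2 was 1.17 to 1.25 times Trpm2 in LPS, 1.30 to 1.36 times in LPS+EtOH and 0.465 to 0.554 times in LPS+CPZ. In both ratios the 3 groups were apart from each other in all libraries. The most abundant member was Mcoln2 in every LPS library, Trpv2 in every LPS+EtOH library and Trpm2 in every LPS+CPZ library.

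The 10 genes together summed to 46.1 to 48.5 FPKM with LPS alone, 63.0 to 67.2 with ethanol, and 67.8 to 74.3 with CPZ. Mcoln2 made up 30.7 to 39.2% of that sum in LPS, 0.998 to 1.73% in LPS+EtOH and 9.21 to 17.1% in LPS+CPZ. Trpv2 made up 17.7 to 21.3, 41.8 to 46.5 and 16.7 to 20.1%, and Trpm2 14.2 to 17.9, 32.3 to 34.2 and 35.7 to 37.7%. Mcoln1 made up 7.09 to 8.38, 8.69 to 10.4 and 17.7 to 19.1%, and Trpm7 14.2 to 17.0, 7.64 to 13.1 and 10.3 to 14.2%. The sum was thus led by Mcoln2 with LPS alone, by Trpv2 and Trpm2 with ethanol and by Trpm2 with CPZ.

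**Figure D2:**
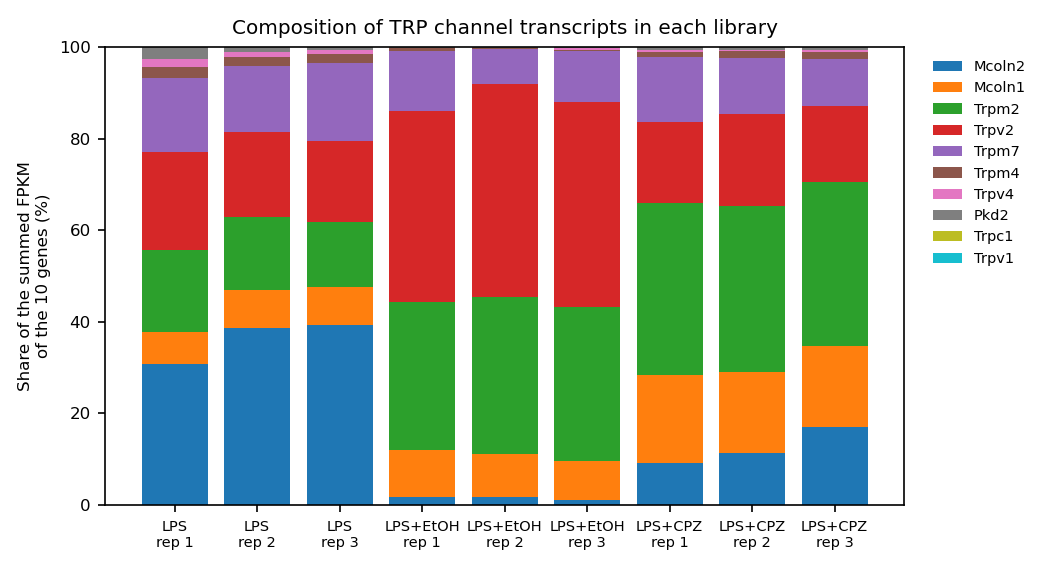
Share of the summed FPKM of the 10 TRP channel genes (y axis, percent) held by each gene in each of the 9 libraries (x axis), stacked to 100%. Mcoln2 holds 30.7 to 39.2% in the LPS libraries and 0.998 to 1.73% in the LPS+EtOH libraries, and Trpm2 holds the largest share in the LPS+CPZ libraries.

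**Figure D3:**
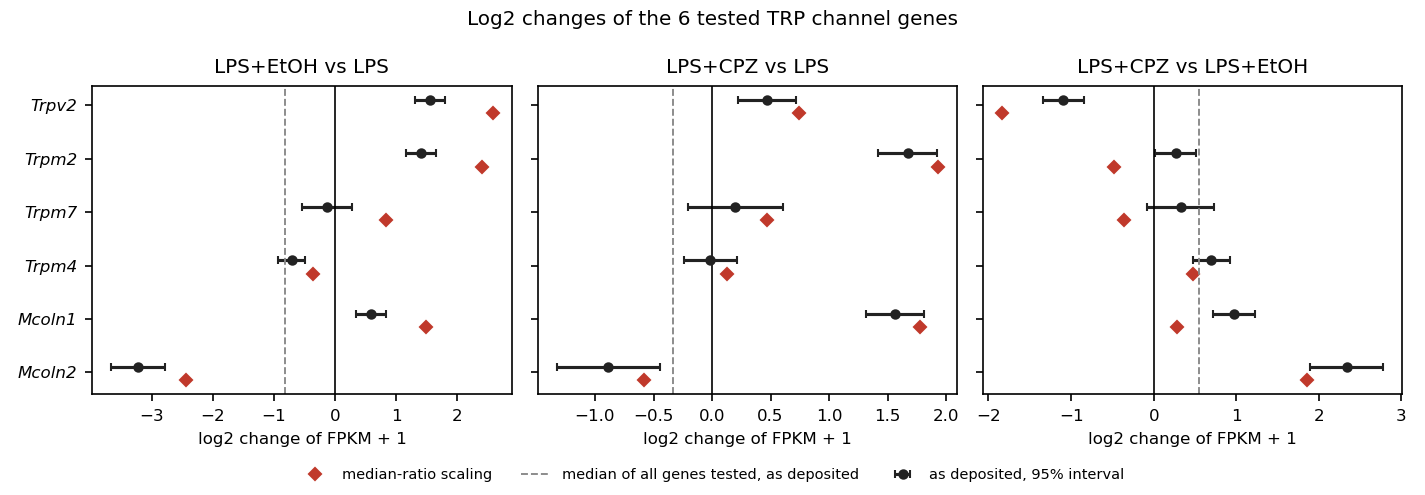
Log2 change of FPKM + 1 (x axis, a separate scale in each panel) of the 6 tested TRP channel genes in the 3 comparisons. Black points with bars are values as deposited with their 95% interval, red diamonds are values after median-ratio scaling, the solid line is no change and the dashed line is the median of all genes tested. Trpm7 in LPS+EtOH against LPS and Trpm2 and Trpm7 in LPS+CPZ against LPS+EtOH change sign with the scaling, as does Trpm4 in LPS+CPZ against LPS, which passed neither way.

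Pkd2 (ENSMUSG00000034462) and Trpc1 (ENSMUSG00000032839), a cation channel of the endoplasmic reticulum and cilium and a channel tied to store-operated calcium entry, were low and not tested. Pkd2 was at 1.21, 0.469 and 0.264 FPKM with LPS alone, at 0.125, 0.0805 and 0.0760 with ethanol, and at 0.455, 0.363 and 0.476 with CPZ. LPS+EtOH lay below both other groups, which overlapped. Trpc1 was at 0.0342, 0.0166 and 0.0195 FPKM with LPS alone, at 0, 0.00259 and 0 with ethanol, and at 0.00449, 0.0236 and 0.0254 with CPZ, levels at which little can be read from a difference. When the filter on low values was dropped, Trpv4, Pkd2 and Trpc1 were lower in LPS+EtOH than in LPS, with log2 changes of -0.48, -0.55 and -0.03 (limma adjusted p = 0.0103, 0.0432 and 0.0438), and neither LPS+CPZ against LPS nor LPS+CPZ against LPS+EtOH passed for any of them. Pkd1 is the gene of polycystin-1, the large membrane partner of polycystin-2, and is not among the 10. It stood at 3.86 ± 0.414 FPKM with LPS alone, 0.167 ± 0.0503 with ethanol, and 1.49 ± 0.396 with CPZ (SD, n = 3), lower than in LPS by a log2 change of -2.05 (limma adjusted p = 1.76e-07) and of -0.97 (limma adjusted p = 7.28e-05).

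Genes that work with these channels were read from 6 lists by function, of which 76 of 83 genes were tested. With ethanol 10 of the 76 were higher and 56 lower than in LPS, with a median log2 change of -1.10 where that of all genes was -0.82. With CPZ 17 were higher and 41 lower than in LPS, with a median of -0.41 against -0.33, and in LPS+CPZ against LPS+EtOH 50 were higher and 6 lower, with a median of 0.72 against 0.55. These splits follow the direction of most genes. Of all genes tested, 19.0% were higher and 64.6% lower with ethanol, and 20.7 and 48.4% with CPZ. In LPS+CPZ against LPS+EtOH the shares were 61.4 and 15.2%. Counts of each list below are to be read against these shares. After median-ratio scaling the splits of the 76 genes were 26 and 38, 19 and 28, and 35 and 21.

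Around the mucolipins, 13 genes were listed for their activating lipid PI(3,5)P2, for TFEB signalling and for other lysosomal calcium routes. Of these, 3 were higher and 9 lower with ethanol, and 3 higher and 7 lower with CPZ. After median-ratio scaling 5 were higher and 6 lower with ethanol, and 3 higher and 5 lower with CPZ. Tfeb, the lysosomal transcription factor gene, rose from 4.73 ± 0.748 FPKM with LPS alone to 18.2 ± 1.19 with ethanol (log2 change 1.75, limma adjusted p = 2.74e-07) and to 14.2 ± 0.482 with CPZ (1.42, limma adjusted p = 3.52e-06). Tfe3, its relative, was at 17.0 ± 1.41, 39.9 ± 1.22 and 16.8 ± 1.17 FPKM, so that LPS+CPZ was lower than LPS+EtOH by a log2 change of -1.20 (limma adjusted p = 5.27e-06). Vac14, the scaffold of the enzyme complex that makes PI(3,5)P2, fell from 5.79 ± 0.619 FPKM with LPS alone to 1.05 ± 0.0821 with ethanol (log2 change -1.72, limma adjusted p = 1.91e-07). With CPZ Vac14 fell to 3.83 ± 0.255 FPKM (-0.49, limma adjusted p = 0.00241), where the median of all genes was -0.33. The other genes of that complex, Pikfyve and Fig4, were named after their values were seen: Pikfyve was at 4.26, 0.846 and 2.42 FPKM and Fig4 at 5.40, 1.15 and 2.85 in LPS, LPS+EtOH and LPS+CPZ. Mcoln1, unlike Vac14, Pikfyve and Fig4, was higher with ethanol and with CPZ than with LPS alone.

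For TRPM2, of 12 genes that make or break down ADP-ribose and its precursors, 10 were tested. Of these, 2 were higher and 7 lower with ethanol, and 4 higher and 4 lower with CPZ. After median-ratio scaling 4 were higher and 6 lower with ethanol, and 4 higher and 3 lower with CPZ. Parp1, the main enzyme of poly-ADP-ribose synthesis, fell from 18.8 ± 1.85 FPKM with LPS alone to 1.89 ± 0.427 with ethanol (log2 change -2.78, limma adjusted p = 7.82e-08) and to 7.66 ± 1.25 in LPS+CPZ (-1.20, limma adjusted p = 4.71e-05). Cd38, a surface enzyme that turns NAD into ADP-ribose and cyclic ADP-ribose, fell from 28.8 ± 7.18 to 3.95 ± 0.103 FPKM with ethanol (log2 change -2.56, limma adjusted p = 1.91e-07) and to 11.6 ± 1.37 with CPZ (-1.22, limma adjusted p = 8.23e-05). Bst1, a related surface enzyme, rose from 21.9 ± 7.84 FPKM with LPS alone to 124 ± 11.9 with CPZ (log2 change 2.49, limma adjusted p = 3.75e-06) and to 147 ± 17.7 with ethanol (2.74, limma adjusted p = 6e-07). Nampt, the rate-limiting enzyme of NAD salvage, rose from 165 ± 32.8 to 487 ± 37.2 FPKM with CPZ (log2 change 1.58, limma adjusted p = 2.85e-05) and to 361 ± 58.0 with ethanol (1.14, limma adjusted p = 0.000137). Nudt9, a mitochondrial ADP-ribose hydrolase related to the TRPM2 gating domain, was higher in LPS+CPZ than in LPS+EtOH, at 19.7 ± 1.86 against 7.12 ± 0.561 FPKM (log2 difference 1.35, limma adjusted p = 5.99e-06). Trpm2 itself was high in both of these groups.

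For TRPM7, the 11 genes of magnesium transport had 2 higher and 7 lower with ethanol and 3 higher and 6 lower with CPZ. After median-ratio scaling 4 were higher and 6 lower with ethanol, and 3 higher and 4 lower with CPZ. Slc41a2, a magnesium transporter gene, fell from 5.54 ± 0.809 FPKM with LPS alone to 0.107 ± 0.0143 with ethanol and 1.65 ± 0.528 with CPZ, with log2 changes of -2.56 and -1.32. Slc41a1, of the same family, fell from 15.7 to 1.33 FPKM with ethanol (log2 change -2.85) and to 3.75 with CPZ (-1.81). Mrs2, the mitochondrial magnesium channel gene, fell from 3.98 to 0.364 FPKM with ethanol (-1.87) and to 2.61 with CPZ (-0.46, where the median of all genes was -0.33). Ptp4a1, a phosphatase gene whose product binds CNNM magnesium transporters, rose from 8.07 to 20.0 FPKM with CPZ (1.20) and to 11.0 with ethanol (0.39). Each of these changes passed the limma threshold. Trpm7 passed no comparison as deposited.

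Regulators of the vanilloid channels were 23 kinases, lipid enzymes and adaptors, of which 18 were tested. Of these, 3 were higher and 13 lower with ethanol, and 2 higher and 12 lower with CPZ. After median-ratio scaling 5 were higher and 10 lower with ethanol, and 3 higher and 9 lower with CPZ. Alox15, whose lipid products include TRPV1 agonists, fell from 7.44 ± 0.428 FPKM with LPS alone to 0.222 ± 0.132 with ethanol (log2 change -2.79) and to 0.357 ± 0.322 with CPZ (-2.66). Prkca, a protein kinase C gene, fell from 5.52 ± 0.736 FPKM to 0.461 ± 0.0644 and 1.08 ± 0.0542, and Prkce, the isoform known to sensitize TRPV1, from 5.33 to 0.612 and 1.08 FPKM. Log2 changes were -2.15 and -1.64 for Prkca and -1.97 and -1.60 for Prkce. All of these passed the limma threshold.

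Around Trpc1, the 16 genes of store-operated calcium entry had 0 higher and 12 lower with ethanol as deposited, but 8 higher and 5 lower after median-ratio scaling. With CPZ 3 were higher and 6 lower as deposited, and 4 higher and 4 lower after that scaling. Itpr3, an IP3 receptor gene, fell from 9.28 ± 2.06 FPKM in LPS to 0.199 ± 0.0325 with ethanol (log2 change -3.08, limma adjusted p = 5.66e-08) and to 0.679 ± 0.232 with CPZ (-2.60), and Itpr1 from 5.08 to 0.943 and 1.69 FPKM (-1.65 and -1.18). Itpr2, the third receptor gene, was higher in LPS+CPZ than in LPS+EtOH, at 6.81 against 3.12 FPKM (log2 difference 0.92). Of the 8 partners of polycystin-2, all 8 were lower with ethanol, and 2 were higher and 6 lower with CPZ. With median-ratio scaling 5 were lower with ethanol, and 2 were higher and 3 lower with CPZ. Among them Ganab and Prkcsh, the subunits of glucosidase II in the endoplasmic reticulum, fell with ethanol from 20.5 to 3.59 and from 12.4 to 2.10 FPKM, with log2 changes of -2.24 and -2.11. With CPZ they fell to 13.2 and 8.69 FPKM, with log2 changes of -0.60 and -0.47, where the median of all genes was -0.33. The named changes of the receptor and glucosidase genes all passed the limma threshold.

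**Figure D4:**
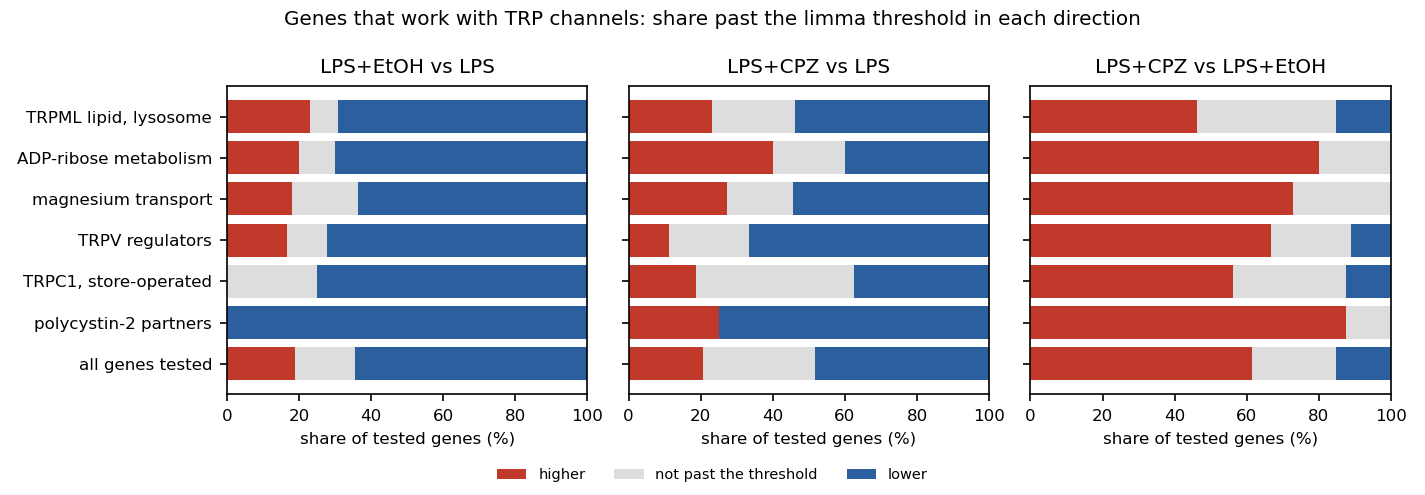
Share of tested genes (x axis, percent) that were higher (red), not past the limma threshold (grey) or lower (blue) in each of the 6 lists of channel partners and among all 11721 genes tested, in the 3 comparisons, as deposited. With ethanol the 8 polycystin-2 partners are all lower and none of the 16 store-operated entry genes is higher, where 64.6% of all genes are lower and 19.0% higher.

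For each tested member, the genes most like it over the 9 libraries were taken as those with the smallest root mean square difference of log2(FPKM + 1), each gene centred on its own mean, among 4703 candidates. Trpv2 was closest to Fpr2, a formyl peptide receptor gene of phagocytes (difference 0.11), and Flot1, a membrane scaffold gene (0.13). Trpm2 was closest to Arl8a, a gene of lysosome transport (0.10). Mcoln1 was closest to Slc38a7, a lysosomal amino acid transporter gene (0.08), and Mettl6 (0.09). Trpm7 was closest to Msl1 (0.10) and Qk (0.12). No likeness is given for Trpm4, because the log2(FPKM + 1) scale flattens a gene at about 1 FPKM or less, and for the same reason the fall of Mcoln2 with ethanol is understated in its likeness.

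Mcoln2 was closest to Igkc, the immunoglobulin kappa constant gene (0.16), with means of 993, 93.9 and 463 FPKM in LPS, LPS+EtOH and LPS+CPZ, and to Lamc1, a laminin gene (0.18). Igkc belongs to B lineage cells, whose markers, like those of some other cells, also moved with Mcoln2, as given above. Between the members other than Trpm4 the smallest difference was 0.39, for Mcoln1 and Trpm2, and the largest was 2.03 for Mcoln2 and Trpv2. The mucolipin genes differed from each other by 1.59. These are descriptions over 9 libraries in 3 groups, with no test.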

How the data were processed

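The authors deposited FPKM values per gene for 9 strand-specific RNA-seq libraries of pooled RNA. FastQC 0.11.2, STAR and StringTie are named in the submitters' processing notes, the last 2 without versions; annotation and strand settings are not given in the sources used here. The notes name the human build hg38, but 55154 of the 55335 gene IDs are in the mouse annotation GENCODE M21, so coordinates are printed only for promoter windows from RefSeq. A step of whole fragments was looked for in low values: at best-fitting steps, as few as 36.0% came within 0.05 of a whole number, where chance gives 10%. Fragments were therefore not recovered, depth is unknown and no counting error is given.

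The 11721 genes that reached 1 FPKM in 3 or more libraries were compared as log2(FPKM + 1) with limma 3.58.1 in R 4.3.3, on all 9 libraries with a term for group alone (eBayes with trend, 6 residual degrees of freedom, two-sided, Benjamini-Hochberg threshold 0.05). Alternatives were a pseudocount of 0.1, no filter, TPM scaling, median-ratio scaling, no globin genes, eBayes without trend, a replicate block, fits of only the 2 groups compared, and each library left out.

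The members and lists were chosen with earlier results of these data known. The text names all 10 members, up to 3 genes of each other list with the smallest adjusted p in a comparison, and the 2 genes most like each tested member other than Trpm4, with a mean of at least 5 FPKM; other genes named singly were chosen after their values were seen. Some genes that this rule takes are not reported here. Cell type markers were summed per library. Python 3.11.15, pandas 2.3.3, numpy 2.4.6 and matplotlib 3.10.9 were used for the rest.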

Additional observations from a re-analysis of the deposited data

How the results depend on the processing

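The 3 counts of genes called and the 6 counts of members called were recomputed under 17 alternatives, and the log2 changes of the 6 tested members likewise. Of the 306 values for single members, 294 kept their direction and their side of the threshold, and 12 of the 18 results did so under every alternative. Without the filter on low values 5 members were lower in LPS+EtOH than in LPS, the 3 added being Trpv4, Pkd2 and Trpc1, and with median-ratio scaling 2 members were lower in LPS+CPZ than in LPS+EtOH, Trpm2 being added. Median-ratio scaling reversed Trpm7 in LPS+EtOH against LPS (0.83) and in LPS+CPZ against LPS+EtOH (-0.36), Trpm4 in LPS+CPZ against LPS (0.13) and Trpm2 in LPS+CPZ against LPS+EtOH (-0.48). Leaving out the globin genes reversed Trpm7 in LPS+CPZ against LPS (-0.084) and ended the call of Trpv2 there (0.18). The cause was not tested. With 1 library left out at a time, Trpm7 in LPS+EtOH against LPS ranged from -0.257 to 0.0655, above 0 without LPS+EtOH replicate 2, and Trpm4 in LPS+CPZ against LPS from -0.0464 to 0.039; neither was called. Trpm2 in LPS+CPZ against LPS+EtOH passed the threshold without LPS replicate 1 (limma adjusted p = 0.0404) and with eBayes without trend (limma adjusted p = 0.0492). Whether equal replicate numbers pair the samples is not given, and the correlations cannot decide it. Deviations of same-numbered libraries correlated at -0.0065 to 0.26, over 0.1 in 3 of 9 pairs. Those of differently numbered libraries correlated at -0.20 to 0.13. With the replicate block 9871, 8156 and 9086 genes were called in place of 9796, 8106 and 8980, with no call of a member changed. Depth is unknown, so how far it limits the genes below 1 FPKM cannot be given.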

Other observations

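Among 22 further genes of the TRP family, 19 never reached 1 FPKM in any library, and Trpa1, Trpc7, Trpv5 and Trpv6 were among those listed at 0 in all 9. Besides Pkd1, given above, Pkd2l2 and Pkd1l3 were tested. Pkd2l2, a polycystin-2 paralog, was at 1.98 ± 0.23 FPKM with LPS alone, 3.86 ± 0.244 with ethanol, and 1.99 ± 0.144 with CPZ (SD, n = 3). It rose with ethanol (log2 change 0.71, limma adjusted p = 9.04e-05) and was lower in LPS+CPZ than in LPS+EtOH (-0.70, limma adjusted p = 0.000156). Neither mucolipin gene had this pattern, but Trpv2 was likewise higher in LPS+EtOH than in LPS and lower in LPS+CPZ than in LPS+EtOH. Pkd1l3, a polycystin-1 paralog, was at 1.35, 0.838 and 0.682 FPKM, lower with ethanol (-0.35, limma adjusted p = 0.0121, but 0.21 after median-ratio scaling) and with CPZ (-0.48, limma adjusted p = 0.00275). Mcoln3, the remaining mucolipin gene, was below 1 FPKM throughout, at 0.208, 0.197 and 0.235 FPKM in the LPS libraries against 0 to 0.0833 in the other 6. Of the 32 TRP family genes in all, 8 to 10 stood at 1 FPKM or more in the LPS libraries, 5 to 6 in LPS+EtOH and 7 to 8 in LPS+CPZ.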
